A study of Drosophila melanogaster with 23 samples.

Results

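The genes described here are the 60 genes of Drosophila melanogaster whose ratios between strains followed those of janB and ocn most closely across microarrays of adult males. The mean of the 17 printed features of janB (8 features) and ocn (9 features) served as the profile on each array, where 14 to 17 of them had a value. A feature is 1 printed cDNA spot position. Genes were eligible when they had a feature with exactly 1 gene symbol that was measured on at least 18 of the 21 arrays that carried different strains. janB, ocn and 7 other genes (Prosbeta4R2, Hsp60B, Got2, Sqor, Glyp, mag and yip7) were set aside by the rule. Of the 1153 eligible genes, the 60 with the highest Pearson correlation (r) with the profile were taken, which is 5.2% of them. These same arrays chose the members, so their correlations, slopes and strain levels below are a description and were not tested as evidence of a shared pattern.

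The study compared gene expression directly between 8 strains on 23 arrays with 2 channels each. The strains were Zimbabwe29, St Louis, Zimbabwe2, Zimbabwe30, Hikone R, Canton S, Zimbabwe53 and Oregon R, of which Canton S and Oregon R are widely kept laboratory stocks. In all of them the material was whole adult males, reared on standard medium at 25 °C without a light cycle, taken within a day of eclosion and then aged apart from females for 3 to 4 days. RNA came from extractions of 8 to 12 flies, which were combined into 1 pool per strain. The arrays of a strain therefore repeat 1 pool. Repeat arrays of the same pair of strains were averaged before strain levels were fitted. Standard errors and tests of those levels thus rest on the misfit among the averaged pairs. The spread between repeat arrays did not enter them directly, and differences between flies are not covered. Canton S was on 11 of the 21 arrays, Zimbabwe53 on 9, Oregon R and Zimbabwe30 on 5 each, and Zimbabwe29, St Louis, Zimbabwe2 and Hikone R on 3 each. The 2 remaining arrays carried Canton S or Zimbabwe53 in both channels. Between 3272 and 4987 of 6101 features had a value on an array.

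janB (janus B) and ocn (ocnus) are neighbouring, related genes that are transcribed in the testis during spermatogenesis. In spermatogenesis, spermatocytes transcribe most of what the later stages need, meiosis follows, and round spermatids then elongate, build a flagellum on a microtubule axoneme and lose their surplus cytoplasm. A small set of genes, named after cups and comets, is transcribed after meiosis. In RNA from whole males, fewer cells of a type and less RNA per cell cannot be told apart.

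All values are log2 ratios or log2 levels. The deposited ratios were read as log10 and rescaled, and the median of an array was subtracted from its values. The channel that formed the numerator is not stated, so every sign below follows an arbitrary convention: signs are printed so that janB and ocn come out positive for Zimbabwe29 against Canton S. Reversing it would reverse all genes and arrays together. Which strains lay together and which lay apart does not depend on it, and no strain is called higher or lower. A ratio of strain A against strain B is A over B under this convention.

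The profile itself ranged widely. On the 2 arrays of Zimbabwe53 against St Louis, janB gave -0.90 and -0.85 and ocn gave -1.003 and -1.04. On the array of Zimbabwe30 against St Louis, janB was at -0.71 and ocn at -1.0004. Zimbabwe29 against Canton S gave janB 0.65 and 0.52, and ocn 0.58 and 0.54. St Louis and Zimbabwe29 thus lay on one side of the strains they were set against, and both arrays of a pair agreed. In 3 other pairs the 2 arrays put the profile on opposite sides of 0: Oregon R against Canton S (-0.49 and 0.25), Zimbabwe53 against Oregon R (0.54 and -0.44) and Zimbabwe30 against Zimbabwe53 (0.58 and -0.17). For these pairs the repeat spread was larger than the mean. In the deposited orientation both arrays of each of these pairs were positive: 0.49 and 0.25, 0.54 and 0.44, and 0.58 and 0.17. There the sign of the profile stayed with the channel and not with the strain. Correlations with the profile used the deposited orientation, and the part of the channel in them was not tested. Across the 21 arrays the ratio of janB correlated with that of ocn at r = 0.951, and single profile features correlated with each other at 0.597 to 0.981 (median 0.859). These correlations share arrays and RNA pools, and 16 of the 17 profile features were printed in grid rows 18 and 19 of the array.

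The 60 members had r of 0.617 to 0.884 with the profile, with a median of 0.710 over 18 to 21 arrays. There were 8 members with r over 0.8 and 33 with r over 0.7. Over all eligible genes the quartiles of r were -0.252, -0.015 and 0.250, and the lowest was -0.811. On the other side, 37 eligible genes had r below -0.617, and 9 had r below -0.7. The cut lay in a continuous run of values. Just inside it were CG10307 (r = 0.619), CG1628 (0.618) and CG11779 (0.617), and just outside were prtp (0.614), bora (0.612) and spoon (0.611).

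**Figure D1:**
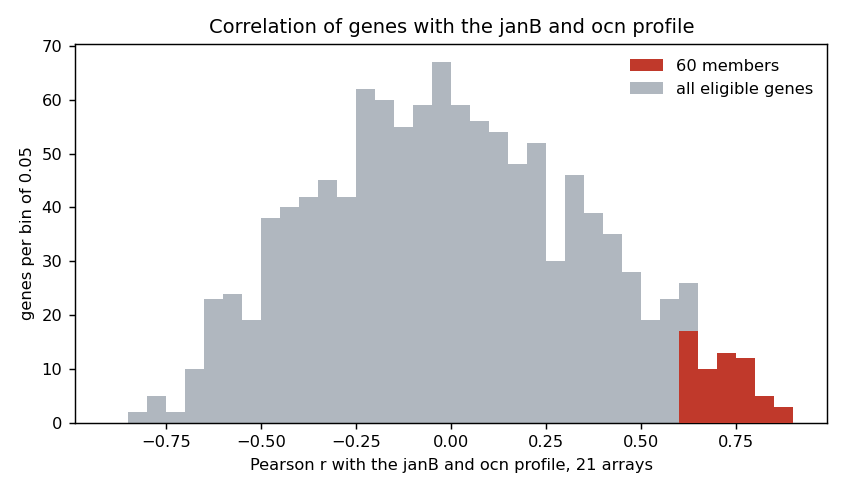
Histogram of Pearson r between each eligible gene and the mean of the janB and ocn features over 21 arrays (x axis) against the number of genes per bin of 0.05 (y axis), with the 60 members in red among all 1153 eligible genes in grey. The members are the right tail from 0.617 to 0.884, and no gap separates them from the rest.

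Ratios of members were smaller than those of the profile. The slope of a member's log2 ratio on the profile was between 0.24 and 0.69, with a median of 0.42, against -0.01 over eligible genes. The steepest were CG31693 and CG3795 (0.69 each), CG43755 and DopEcR (0.68 each) and CG10934 (0.67). The shallowest were CG10211 (0.24), Snp (0.25), Ran and scrib (0.26 each) and SKIP (0.27). A member lay on the same side of 0 as the profile on 10 to 19 arrays, with a median of 15, against 10 for eligible genes. Between members, the 1770 pairwise correlations had a median of 0.609 and a range of 0.075 to 0.937. None of them was below 0.

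Strip, which encodes the scaffold of the STRIPAK kinase and phosphatase complex, followed the profile most closely (r = 0.884). Its ratio was -0.36 and -0.52 on the 2 arrays of Zimbabwe53 against St Louis, -0.07 on the array of Zimbabwe30 against St Louis, and 0.34 and 0.30 for Zimbabwe29 against Canton S. Zimbabwe29 stood out more than St Louis, with fitted levels of 0.44 ± 0.12 and 0.15 ± 0.12 (SE) against the mean of the 8 strains. CG3795 encodes a predicted serine protease (r = 0.882). It gave -0.77 and -0.76 for Zimbabwe53 against St Louis and -0.33 for Zimbabwe30 against St Louis. Its 2 arrays of Zimbabwe29 against Canton S were 0.69 and -0.07, so that difference was not repeated. CG32026, a relative of mitochondrial isocitrate dehydrogenase, had r = 0.877, with -0.77 and -0.60 for Zimbabwe53 against St Louis. Zimbabwe29 against Canton S gave 0.53 and 0.65 for CG32026, close to the values of janB. Strip and CG32026 lie on chromosome arm 3L and CG3795 on the X.

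The members lay on the same side as the profile mainly where the profile was far from 0. In Zimbabwe53 against St Louis the profile averaged -0.95 over 2 arrays and the median member -0.46, and 60 of 60 members were below 0. Zimbabwe30 against St Louis gave -0.86 for the profile and -0.31 for the median member on its single array, again with 60 of 60 below 0. In Zimbabwe29 against Canton S the profile was at 0.57 and the median member at 0.27, with 58 members on its side. Zimbabwe53 against Canton S gave -0.47 and -0.37, also with 58 members on the profile's side. In Hikone R against Canton S the profile was at 0.28 and the median member at 0.19, and 51 members agreed in side. Zimbabwe30 against Zimbabwe53 had the profile at 0.21, the median member at 0.10 and 49 members on the same side. Its 2 arrays differed: 52 of 60 members shared the side of the profile on the first (0.58), and 30 of 60 on the second (-0.17). Zimbabwe2 against Zimbabwe53 and Zimbabwe2 against Oregon R, with 1 array each, had the profile at 0.21 in both and 39 and 32 members on its side. In the 4 pairs with the profile nearest to 0, 27 to 40 members shared its side.

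Zimbabwe29 against Hikone R departed from this order. On its single array the profile was at 0.60, as far as in Zimbabwe29 against Canton S, and the 17 profile features had an SD of 0.09. The median member was at 0.05, and 37 of 60 members were on the side of the profile. Strip (0.43), Cdlc2 (0.50), spir (0.55), SKIP (0.50) and NFAT (0.47) followed it. AIF (-0.32), CG9855 (-0.23), phtf (-0.21) and Eps-15 (-0.20) lay on the other side. This pair has no repeat array.

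**Figure D2:**
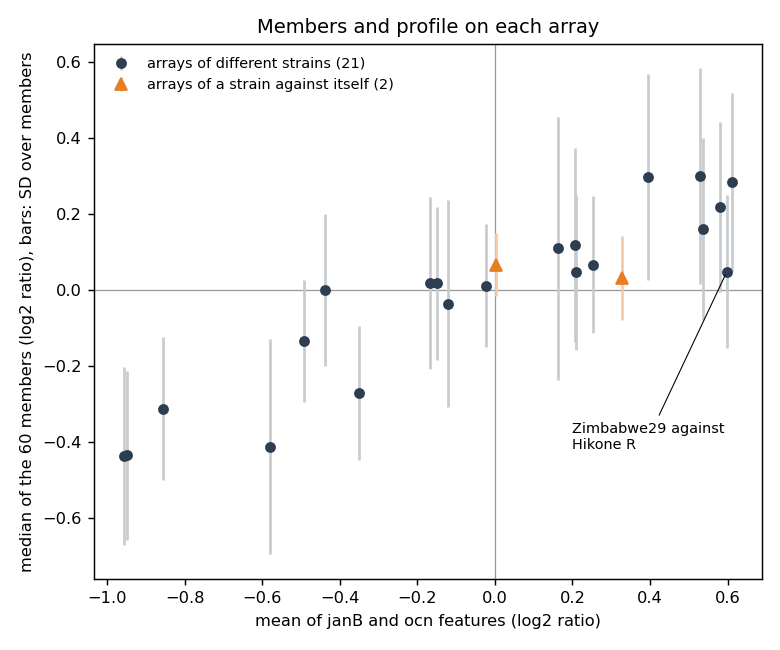
Mean log2 ratio of the janB and ocn features (x axis) against the median log2 ratio of the 60 members (y axis) on each of 21 arrays of different strains (circles) and 2 arrays of a strain against itself (triangles); bars are the SD over members. The array of Zimbabwe29 against Hikone R lies far right, with the median member at 0.05.

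Fitting all 21 arrays together gave a level of each gene in each strain against the mean of the 8 strains. In Zimbabwe29 the mean level of the profile was 0.60 and the median member 0.27, with 57 of 60 members above 0. St Louis had the profile at 0.60 and the median member at 0.22, with 60 above 0. Both strains thus lay on the positive side for janB, ocn and nearly all members. Zimbabwe53 had the profile at -0.44 and the median member at -0.23, with 0 of 60 above 0. Oregon R had the profile at -0.36 and the median member at -0.18, with 2 above 0. These 2 strains were the opposite end. For Oregon R this rests partly on pairs whose 2 arrays disagreed in side. The profile was at -0.49 and 0.25 in Oregon R against Canton S, and at 0.54 and -0.44 in Zimbabwe53 against Oregon R. Zimbabwe30 (profile -0.27, median member -0.10, 5 members above 0), Zimbabwe2 (-0.10, -0.09 and 15) and Canton S (-0.09, -0.04 and 17) lay between. In Hikone R the profile was near the mean of the strains at 0.05, while the median member was at 0.15 and 53 members were above 0. The repeated pair, Hikone R against Canton S, did not show this gap, with the profile at 0.28 and the median member at 0.19. It was wide on the unrepeated array of Zimbabwe29 against Hikone R, with 0.60 and 0.05. Eligible genes had medians of -0.02 to 0.01 in the 8 strains. The typical standard error of a member's level was 0.11 in Zimbabwe29, St Louis and Hikone R, 0.10 in Zimbabwe2, 0.08 in Zimbabwe30 and Oregon R, 0.06 in Zimbabwe53 and 0.05 in Canton S.

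**Figure D3:**
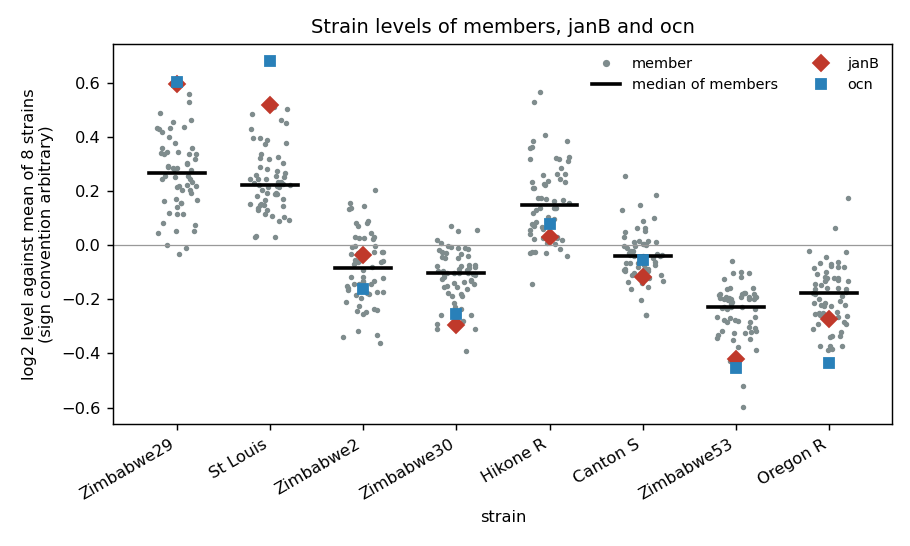
Fitted log2 level against the mean of the 8 strains (y axis, sign arbitrary) for each strain (x axis); grey points are the 60 members, bars their median, the diamond janB and the square ocn. In Zimbabwe29 and St Louis janB and ocn lie above nearly all members, and in Hikone R the median member (0.15) lies above both. Hikone R was on 3 arrays, and its array with Zimbabwe29 has no repeat.

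The moderated F test among the 8 strains (limma, Benjamini-Hochberg adjusted p under 0.05) was passed by 49 of 60 members and by all 17 profile features. It was passed by 46.6% of the 4841 features tested and by 43.9% of eligible genes. Members were chosen from these arrays, so nothing is read from that count. The 11 that missed it were CG10211, CG30015, CG7656, CG8042, gol, Kpc1, NFAT, phtf, SKIP, Stoml2 and Zif. For single strains, 11 members were called on the positive side in Zimbabwe29, where 4.63% of all features were. St Louis had 6 positive calls among members, against 2.69% of features. On the negative side, Zimbabwe53 had 47 calls, where 13.6% of features were called, and Oregon R had 14, where 6.32% were. Zimbabwe53 was on 9 arrays and had a smaller standard error than the other strains named here. Canton S, on 11 arrays and with a still smaller standard error, had fewer member calls. What part these play in the counts was not tested.

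The extreme strains of a member differed by 1.25- to 2.12-fold, with a median of 1.54-fold, against 1.35-fold over eligible genes. CG10934 (2.12-fold) and Neto (2.03-fold) were the 2 members beyond 2-fold. On the positive side the extreme strain was Zimbabwe29 for 26 members, St Louis for 21, Hikone R for 12 and Oregon R for 1, scrib. The levels of scrib are those of 1 of its 2 features, which had r = 0.392 with the profile. On the negative side it was Zimbabwe53 for 35 members, Oregon R for 17, and Zimbabwe2 and Zimbabwe30 for 4 each. The 12 members with Hikone R at the extreme were AIF, CG10211, CG10934, CG11779, CG1628, CG31693, CG9855, Iru, lili, Snp, sofe and Usp20-33. Their median level was 0.36 in Hikone R, 0.27 in Zimbabwe29 and 0.18 in St Louis.

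**Figure D4:**
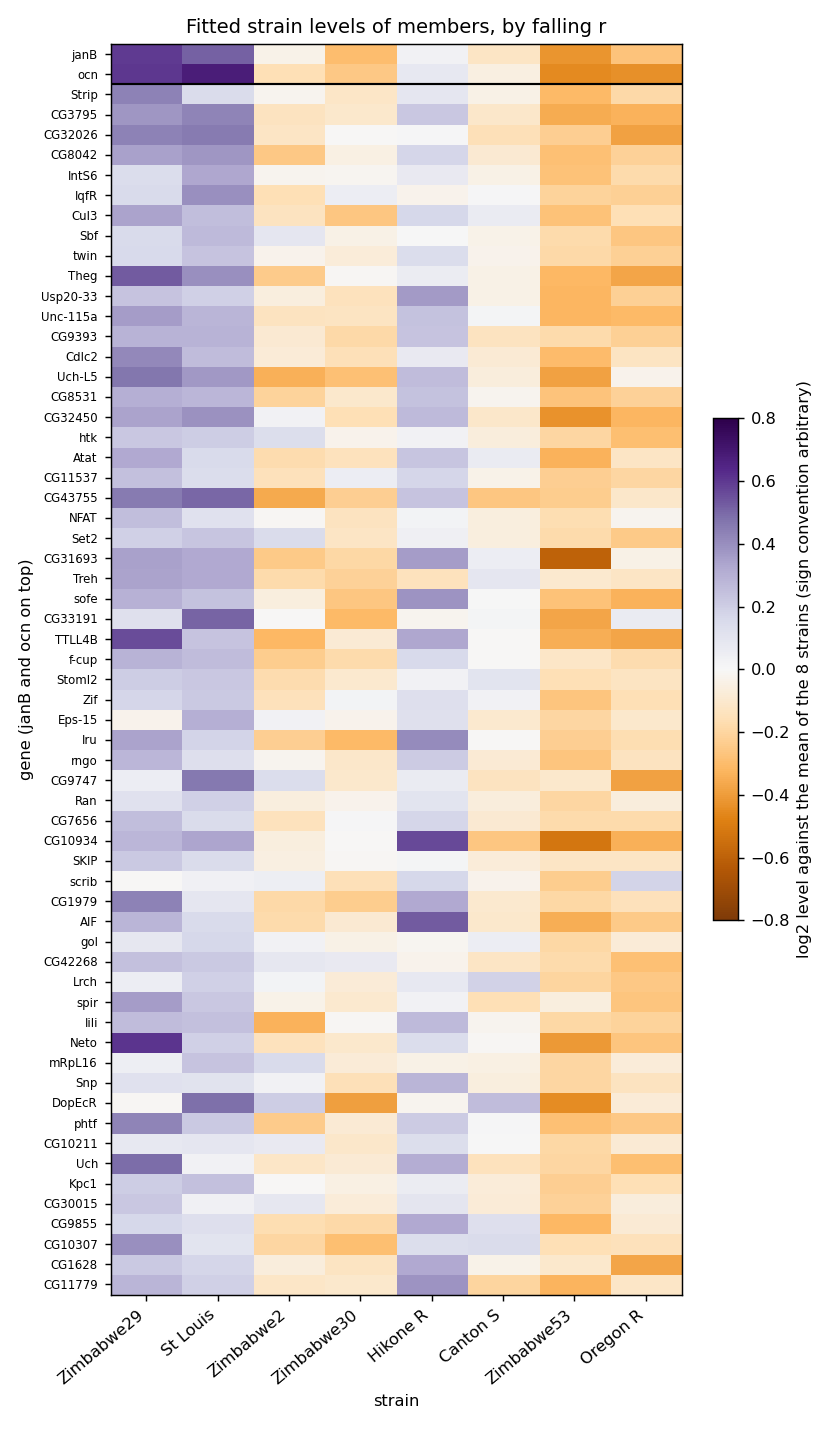
Fitted log2 level against the mean of the 8 strains (colour, sign arbitrary) for janB, ocn and the 60 members (rows, by falling r) in each strain (columns). Zimbabwe29 and St Louis are mostly purple and Zimbabwe53 and Oregon R mostly orange, while Hikone R varies from -0.14 for Treh to 0.57 for CG10934.

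Below, members are taken by what they are known to do; these groups were drawn by hand once the members were known, 42 of 60 members have a role given, and Cul3 and Cdlc2 stand in 2 groups. Eligible genes were not sorted into these groups, so nothing is read from the size of a group. The levels of a group follow in part from the choice of members. The 4 members with a known part in the male germ line, or a relative with one, were Theg, f-cup, Cdlc2 and Cul3. Theg, whose mouse counterpart is made in haploid male germ cells, had r = 0.787. It gave 0.71 and 0.41 for Zimbabwe29 against Canton S, -0.81 on the 1 measured array of Zimbabwe53 against St Louis, and a 1.87-fold range between strains. Its levels were 0.53 ± 0.10 in Zimbabwe29 and 0.40 ± 0.12 in St Louis (SE). They were -0.32 ± 0.07 in Zimbabwe53 and -0.37 ± 0.08 in Oregon R. The choice of members favours such a gap, so it was not tested. f-cup is a gene of the post-meiotically transcribed cup class. Its ratios were -0.31 and -0.44 for Zimbabwe53 against St Louis, -0.34 for Zimbabwe30 against St Louis, and 0.29 and 0.40 for Zimbabwe29 against Canton S. Each lay on the side of janB, and r was 0.716. Of the 4 ratios measured for both genes, f-cup was nearer to 0 than Theg except in Zimbabwe30 against St Louis, where Theg gave -0.31.

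Cdlc2 encodes a dynein light chain of the LC8 family. Its ratios were -0.62 and -0.43 for Zimbabwe53 against St Louis, -0.57 for Zimbabwe30 against St Louis, 0.64 and 0.30 for Zimbabwe29 against Canton S, and 0.50 for Zimbabwe29 against Hikone R. All 6 lay on the side of the profile (r = 0.779, range 1.65-fold). Its close relative ctp is no member. The levels of ctp were 0.20 in Zimbabwe29 and -0.15 in St Louis, against -0.03 in Zimbabwe53 and 0.27 in Oregon R. It missed the moderated F test (adjusted p 0.0556). Cul3 encodes the cullin scaffold of a ubiquitin ligase, and a testis form of it is needed for the caspase activity that accompanies sperm individualization. Cul3 had r = 0.810, but its repeat arrays differed: -0.18 and -0.76 for Zimbabwe53 against St Louis, and 0.48 and -0.16 for Zimbabwe29 against Canton S. The 4 genes had median levels of 0.38 in Zimbabwe29 and 0.26 in St Louis, against -0.29 in Zimbabwe53 and -0.17 in Oregon R.

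The 9 members of the ubiquitin system come next, a system which tags proteins for breakdown or sorting and removes the tags. Besides Cul3 they were the deubiquitinases Usp20-33, Uch-L5 and Uch, the ubiquitin ligases Iru, Kpc1 and gol, the conjugating enzyme relative CG7656, and rngo, a ubiquitin receptor of the Ddi1 type. Uch-L5, which acts on the proteasome, had the widest range of these at 1.80-fold, with r = 0.776. Its ratios were -0.75 and -0.67 for Zimbabwe53 against St Louis and -0.65 for Zimbabwe30 against St Louis, and 0.65 and 0.18 for Zimbabwe29 against Canton S. The 3 arrays with St Louis agreed closely, and the 2 with Zimbabwe29 less so. Usp20-33 had r = 0.786 and was most extreme in Hikone R (0.36), against Zimbabwe53 (-0.32). Uch (r = 0.632) had levels of 0.49 in Zimbabwe29 but 0.03 in St Louis, so it shared only part of the pattern. Iru (r = 0.701) was at 0.41 in Hikone R and -0.31 in Zimbabwe30. The other 4 had narrower ranges: rngo 1.46-fold (r = 0.697), Kpc1 1.39-fold (0.630), CG7656 1.35-fold (0.684) and gol 1.28-fold (0.650). Of the 9, Kpc1, gol and CG7656 missed the F test.

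The cytoskeleton group has 6 members, which act on actin, microtubules or dynein: Unc-115a, Cdlc2, Atat, TTLL4B, spir and Lrch. TTLL4B belongs to the tubulin tyrosine ligase-like enzymes, which add side chains to tubulin, and Atat acetylates alpha-tubulin. TTLL4B gave 0.44 and 0.98 for Zimbabwe29 against Canton S and -0.90 and -0.49 for Zimbabwe53 against Canton S. Its repeats agreed in side but not in size, and its range was 1.91-fold (r = 0.721). Atat gave 0.02 and 0.49 for Zimbabwe29 against Canton S and -0.81 and -0.55 for Zimbabwe53 against Canton S (r = 0.755). Unc-115a, an actin-binding LIM protein, had r = 0.786 and a 1.60-fold range, and gave -0.90 and -0.45 for Zimbabwe53 against St Louis. spir, an actin nucleator best known from the oocyte, had r = 0.647 and levels of 0.36 in Zimbabwe29 and -0.26 in Oregon R. Lrch, which links actin to the cell cortex, was with DopEcR one of the 2 members on the other side in Zimbabwe29 against Canton S, with -0.08 and -0.14, and its level was 0.05 in Zimbabwe29 and 0.19 in St Louis (r = 0.648).

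Another 8 members act in mitochondria or metabolism: CG32026, Stoml2, AIF, mRpL16, CG11779, CG1628, Treh and CG9747. Treh, the enzyme that splits the blood sugar trehalose, had r = 0.737 and levels of 0.34 ± 0.09 in Zimbabwe29 and 0.32 ± 0.09 in St Louis, against -0.10 ± 0.05 in Zimbabwe53 (SE). Unlike most members it lay on the negative side in Hikone R (-0.14 ± 0.09). AIF, a mitochondrial flavoprotein, had its extreme in Hikone R (0.53) and Zimbabwe53 (-0.35), a 1.84-fold range. CG9747, a relative of fatty acid desaturases, was at 0.46 in St Louis and -0.38 in Oregon R, with 0.05 in Zimbabwe29 (r = 0.687). mRpL16, a mitochondrial ribosomal protein, was at 0.05 in Zimbabwe29 and 0.23 in St Louis. Stoml2, a stomatin-like protein of the inner membrane, was at 0.20 in Zimbabwe29 and 0.22 in St Louis. CG11779, a relative of the import protein Tim44, and CG1628, a relative of mitochondrial carriers, were both most positive in Hikone R, at 0.39 and 0.32. The group thus held genes with St Louis, Zimbabwe29 or Hikone R at the extreme.

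A group of 9 members acts in endocytosis, signalling or cell polarity: Strip, lqfR, Eps-15, Sbf, scrib, lili, Neto, DopEcR and SKIP. lqfR (epsin-related, r = 0.810), Sbf (a myotubularin relative that activates Rab21, r = 0.802) and Eps-15 (an endocytic adaptor, r = 0.706) had St Louis at the extreme, with levels of 0.40, 0.27 and 0.30. Their first array of Zimbabwe53 against St Louis gave -0.84, -0.75 and -0.86 and the second -0.51, -0.26 and -0.29, so the size was not repeated for Sbf and Eps-15. Neto, an auxiliary protein of glutamate receptors at the neuromuscular junction, gave 0.55 and 1.02 for Zimbabwe29 against Canton S and had a level of 0.61 ± 0.14 in Zimbabwe29 (SE, r = 0.642). DopEcR, a membrane receptor for dopamine and ecdysone, differed in another way. It gave -0.97 and -0.90 for Zimbabwe53 against St Louis and -1.08 for Zimbabwe30 against St Louis, close to the values of ocn, but -0.52 on the 1 measured array of Zimbabwe29 against Canton S, opposite to ocn. Its levels were 0.49 ± 0.09 in St Louis and -0.01 ± 0.11 in Zimbabwe29 (SE, r = 0.635).

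The polarity gene scrib had 2 eligible features that correlated with the profile at 0.690 and 0.392, and their mean at 0.658. Its fitted levels are those of the feature with r of 0.392, which was measured on all 21 arrays, and not of the mean. That level was 0.18 ± 0.07 in Oregon R (SE), where 58 of 60 members were below 0. SKIP, which binds the Shal potassium channel, had r = 0.681 on the feature used. Its 2 other measured features, on 16 arrays each and so not eligible, had r of -0.009 and 0.115. The features of SKIP therefore did not agree. lili, which promotes BMP signalling in germ line stem cells, had r = 0.647 and equal levels of 0.26 in Zimbabwe29 and Hikone R, with 0.25 in St Louis.

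The last 8 with a group act in the nucleus or on RNA: IntS6, twin, htk, Set2, NFAT, Zif, Ran and Snp. They had the narrowest median range of the groups, at 1.39-fold. IntS6, a subunit of the Integrator complex that processes small nuclear RNA, had r = 0.828 and gave -0.93 and -0.36 for Zimbabwe53 against St Louis. twin, the CCR4 deadenylase that shortens poly-A tails, had r = 0.792 and gave -0.42 and -0.36 there, and 0.33 and 0.02 for Zimbabwe29 against Canton S. htk, a relative of the ARID4 chromatin proteins, had r = 0.768, and Set2, which methylates histone H3, had r = 0.737. htk and Set2 were at 0.22 and 0.19 in Zimbabwe29 and at -0.29 and -0.25 in Oregon R. NFAT, the single fly member of that transcription factor family (r = 0.742), and Zif, a zinc finger protein (0.710), missed the F test. Ran, the GTPase of nuclear transport (r = 0.686), and Snp, an exonuclease (0.638), had ranges of 1.31- and 1.40-fold.

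The remaining 18 members, given without a role, include CG3795, described above, and 2 genes with a name of their own, sofe and phtf. sofe had r = 0.730 and levels of 0.39 in Hikone R and -0.33 in Oregon R. phtf had r = 0.633 with 0.27 and 0.88 for Zimbabwe29 against Canton S. CG8042 (r = 0.838) followed among the first 4 members, with -0.63 and -0.59 for Zimbabwe53 against St Louis and 0.51 and 0.34 for Zimbabwe29 against Canton S. Both pairs repeated, yet CG8042 is among the 11 that missed the F test. CG43755 (r = 0.745) gave -0.59 and -0.77 for Zimbabwe53 against St Louis, -0.77 for Zimbabwe30 against St Louis, and 0.73 and 0.53 for Zimbabwe29 against Canton S. Those 5 values were close in size to those of janB except on the first array of Zimbabwe53 against St Louis. CG31693 (r = 0.737) had the most negative level of a member, -0.60 in Zimbabwe53, and gave -0.68 and -1.005 for Zimbabwe53 against St Louis. CG33191 (r = 0.727) had 0.51 in St Louis and 0.12 in Zimbabwe29. CG10934 (r = 0.682) gave 1.08 and 0.86 for Hikone R against Canton S, where janB gave 0.48 and 0.13. The others, with r in parentheses, were CG9393 (0.785), CG8531 (0.769), CG32450 (0.768), CG11537 (0.751), CG1979 (0.657), CG42268 (0.649), CG10211 (0.633), CG30015 (0.629), CG9855 (0.623) and CG10307 (0.619).

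The choice of arrays, and the way they are combined, decides part of the membership. Leaving out any 1 of the 21 arrays and choosing again kept 51 to 60 members, and 40 were kept each time. With the 13 pairs of strains in place of the 21 arrays 37 members were kept. No array is left out there: the arrays of a pair are turned alike and averaged. In the 8 channel-exchanged pairs, a part that stays with the channel equally on both arrays cancels in this mean. How far that accounts for the members lost was not tested. Leaving out all 9 arrays with Zimbabwe53, which makes r rest on 12 arrays, also kept 37, and leaving out all arrays of St Louis or of Canton S kept 42 each. The lowest correlation then was that of SKIP, 0.241 without Zimbabwe53. Strip, CG3795 and CG32026 had lowest values of 0.841, 0.80 and 0.810 when the arrays of 1 strain were left out. In all, 29 members were kept by each single array left out, dye subtraction, the 13 pairs, centring within grid rows, and the profile of janB or of ocn alone. They include Strip, CG3795, CG32026, CG8042, IntS6, Theg, Cdlc2, Uch-L5 and Treh. Cul3 and f-cup are not among the 29. Dye subtraction was hardly a check here, because a constant per feature leaves r nearly as it was.

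**Figure D5:**
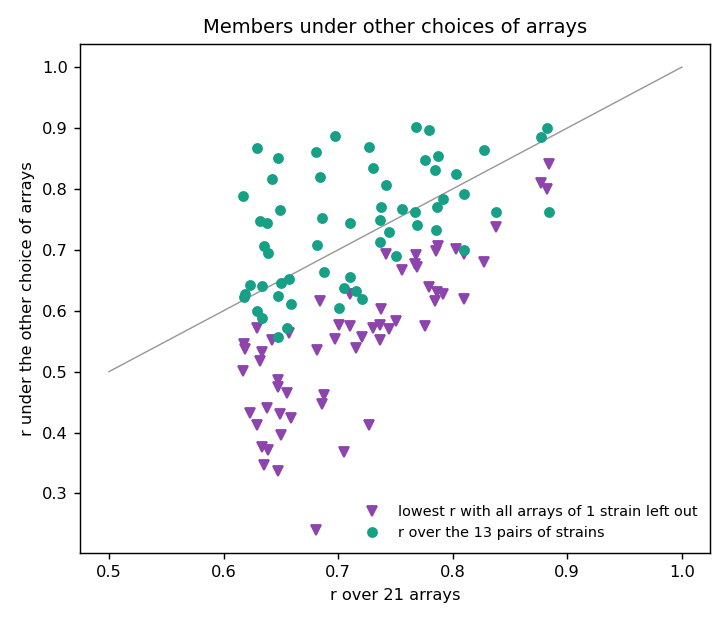
Pearson r of each member over the 21 arrays (x axis) against its r over the 13 pairs of strains (circles) and its lowest r when all arrays of 1 strain are left out (triangles), with the line of equal values. Circles lie on both sides of the line and triangles below it, down to 0.241.

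Few genes of known tissue lists were eligible, so the lists say little about tissue. Of 128 listed testis and spermatogenesis genes, 2 were eligible: Cdlc2, a member at rank 14, and Duba, at rank 86 with r = 0.564. A further 4 testis genes were set aside by the rule: janB and ocn themselves, Hsp60B (r = 0.692) and Prosbeta4R2 (0.362). Levels in St Louis and Zimbabwe30 were 0.45 and -0.07 for Hsp60B, but 0.02 and 0.38 for Prosbeta4R2. No gene of the lists for germ line shared with the ovary, accessory gland or gut was eligible, so these lists gave no value. Of 6 eligible fat body and carbohydrate genes, Treh was a member, and the other 5 had r from -0.529 to -0.093. Muscle had 4 eligible genes (median r 0.211), the nervous system and eye 3 (-0.025), cytoplasmic ribosomal proteins 2 (0.045), the proteasome of all tissues 5 (-0.135) and mitochondrial respiration 2 (-0.527), and none of these was a member. At the far end, Unc-76 (r = -0.811), Aldh7A1 (-0.810), GlnRS (-0.783), CG9917 (-0.770) and Wsck (-0.765) ran opposite to the profile.

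Members were spread over the genome much as eligible genes were. The X held 18.3% of members and 17.3% of eligible genes, 2L 16.7% and 17.1%, 2R 18.3% and 18.6%, 3L 16.7% and 20.5%, and 3R held 18 of the 60 members and 25.2% of eligible genes. Set2 and Neto, 24.88 kb apart on the X, were the one pair of members next to each other in the gene table. The nearest member to janB was CG9747, 146.7 kb away on 3R. The median gene span was 4996.5 bp for members and 4668 bp for eligible genes. Members were measured on all 21 arrays in 66.7% of cases, against 44.7% of eligible genes.

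Print position moved with membership, and its part was not tested. Grid row 16 held 11 members, 18.3% of them against 6.16% of eligible genes: IntS6, Sbf, htk, Atat, Set2, rngo, scrib, CG42268, CG10211, CG30015 and CG11779. Eligible genes of that row had a median r of 0.160. The median r was 0.697 for members in row 16 and 0.711 for the 49 outside it. Centring each array within grid rows kept 51 of 60 members: 7 of the 11 in row 16, with a median r then of 0.672, and 44 of the 49 others, with 0.719. The 4 lost in row 16 were CG42268, CG10211, CG30015 and CG11779. Among 2698 features measured on at least 18 arrays that carry no gene symbol here, 208 (7.71%) had r of at least 0.617, the highest 0.921.

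The 2 arrays of a strain against itself were not used to choose members. With Canton S in both channels, the profile was at 0.33, and its 15 measured features were between 0.20 and 0.45. There the 58 measured members had a median of 0.03 and an SD of 0.11, against an SD of 0.15 over eligible genes. With Zimbabwe53 in both channels the profile was at 0.0033, and the 57 measured members had a median of 0.07 and an SD of 0.08, against a median of -0.0043 and an SD of 0.11 over eligible genes. On that array 46 of 57 members (80.7%) were above 0, against 47.9% of eligible genes, although 1 RNA was in both channels. With Canton S it was 36 of 58 members (62.1%), against 53.7%. CG43755 (0.31), Set2 (0.28) and CG9393 (0.21) were the most positive members with Canton S, and sofe (-0.20) and CG7656 (-0.21) the most negative. The dye offset estimated from channel-exchanged arrays had a median of 0.08 over profile features (mean 0.18) and 0.07 over members, against a median of 0.005 over eligible genes. Single profile features had offsets of -0.10 to 0.67, and members of -0.22 to 0.25. A constant per feature leaves r nearly as it was, and subtracting it kept 60 of 60 members. Whether channel effects that differ between arrays moved the ratios was not tested.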

How the data were processed

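The authors deposited 1 table of log ratios for 23 arrays; no source used here states its base, the numerator channel, the scanner, the spot filter or the normalization. The deposited log10 ratios, read as base 10 because the largest value of 1.56 would otherwise be only 2.95-fold, were multiplied to log2, and the median of an array was subtracted from its values. Of 6101 features, 1943 had 1 gene symbol in the platform annotation, 67 several and 4091 none, and all 1943 matched the Release 6 gene table. No spot intensities were used, so the number of arrays limits the precision.

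Correlations and slopes used the 21 arrays of different strains in their deposited orientation (Python 3.11.15, numpy 2.4.6, pandas 2.3.3). Strain levels came from limma 3.58.1 in R 4.3.3: a dye offset per feature from 8 channel-exchanged pairs was subtracted, the arrays of each of 13 pairs were turned alike and averaged, and pairs were weighted by their arrays. Features needed 10 pairs, 3 of them exchanged, and all 8 strains estimable, which left 4841. A gene with several features was given the levels of the feature on most arrays. The fit was tested on simulated data. Replicate numbers within a pair were given in accession order and pair nothing. Alternatives were another centring or scaling, no dye offset, equal weights, the 13 pairs, complete features, other profile features, and arrays or strains left out.

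The members and gene lists were chosen with earlier results of these data known. Named are the 10 members with the highest r, the 5 largest and 5 smallest slopes, every member with a name other than a CG number or in a gene list, adjacent members, and 3 genes on each side of the cut; the other members are named with r or levels so that all are accounted for.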

Additional observations from a re-analysis of the deposited data

How the results depend on the processing

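Choosing members again kept 39 of 60 where genes had to be measured on all 21 arrays (40 members were then eligible) and 37 over the 13 pairs. Of the alternatives added after seeing the data, the profile from the ocn feature outside grid rows 18 and 19 kept 38, the 8 strain levels in place of arrays kept 39, and leaving out all arrays of Zimbabwe53 kept 37. Features past the F test numbered 1115 when they had to be measured on all 21 arrays, because fewer features, 1727, were fitted. With 1 array left out, 51 to 60 members were kept, 1737 to 2532 features and 34 to 53 members passed the F test, and the median member kept its side in each of the 8 strains. The labels give no replicate numbers to pair arrays by; a fit of single arrays with the title stem as a replicate block passed 2427 features and 50 members (block correlation 0.466). Each strain had 1 RNA pool, so no value covers differences between flies. The log base and the sign are unstated, and the signal over background is unknown.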
